A study of Mus musculus with 6 samples.

Results

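Immunoglobulin light chain V genes are the 163 genes of the count matrices whose symbol starts with Igkv or Iglv, 160 kappa and 3 lambda, among 31253 genes in all. Cells with at least 3 UMIs of Cd79a, Cd79b and Ms4a1 together were taken as B cells, and a UMI (unique molecular identifier) counts 1 captured messenger RNA molecule. Each B cell was assigned the light chain V gene with the most UMIs where that gene had at least 2 UMIs and no tie. By this rule 24052 of 47470 kept cells were B cells, and 4143 of them were assigned to a V gene. The assigned cells numbered 868, 541 and 695 in the control libraries (Con 1, 2 and 3) and 636, 805 and 598 in the diabetic libraries (T2D 1, 2 and 3).

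A light chain V gene is a gene segment that encodes most of the variable domain of the light chain, the part that touches antigen together with the heavy chain. While a B cell develops, the RAG recombinase joins a V segment to a J segment next to a constant gene, first at the kappa locus and, where no usable kappa chain results, usually at the lambda locus. The mouse kappa locus holds many V segments and a single constant gene, Igkc, while the lambda locus holds few V segments and small clusters of J and constant segments. A mature B cell mostly expresses the product of a single light chain rearrangement.

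The coding sequences of the V genes that the results turn on come from GENCODE M21 on mm10 (GRCm38), each a 2-exon gene, written 5′ to 3′ on the gene's own strand. The last 300 coding bases of each gene are printed. Iglv1 (chr16:19085017-19085500, minus strand) and Iglv2 (chr16:19260401-19260859, minus strand) are shown because they are near copies with unequal usage. They are 96.9% identical over 351 coding bases, with 11 that differ. Bases 52 to 351 are shown, counted from the start codon, and the capitals mark the 8 differences among them.
Iglv1: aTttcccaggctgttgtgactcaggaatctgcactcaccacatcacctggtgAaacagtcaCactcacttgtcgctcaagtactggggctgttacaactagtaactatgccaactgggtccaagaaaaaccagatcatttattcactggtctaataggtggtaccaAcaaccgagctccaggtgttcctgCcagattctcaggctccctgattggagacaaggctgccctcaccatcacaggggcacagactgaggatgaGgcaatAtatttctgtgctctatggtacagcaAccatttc
Iglv2: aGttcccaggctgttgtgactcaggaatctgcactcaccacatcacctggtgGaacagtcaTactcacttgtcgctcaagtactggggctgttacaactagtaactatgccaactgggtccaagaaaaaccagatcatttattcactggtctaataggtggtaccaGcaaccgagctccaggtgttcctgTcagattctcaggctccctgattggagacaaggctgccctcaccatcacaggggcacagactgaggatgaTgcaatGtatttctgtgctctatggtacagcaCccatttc
Iglv3 (chr16:19241207-19241690, minus strand) is shown because it had the highest mean share of cells at the minimum of 2 UMIs and was detected more widely than the other lambda genes. Over an alignment with gaps it was 60.9% identical to Iglv1 and 60.7% to Iglv2, so no capitals are given, and bases 71 to 370 are shown.
Iglv3: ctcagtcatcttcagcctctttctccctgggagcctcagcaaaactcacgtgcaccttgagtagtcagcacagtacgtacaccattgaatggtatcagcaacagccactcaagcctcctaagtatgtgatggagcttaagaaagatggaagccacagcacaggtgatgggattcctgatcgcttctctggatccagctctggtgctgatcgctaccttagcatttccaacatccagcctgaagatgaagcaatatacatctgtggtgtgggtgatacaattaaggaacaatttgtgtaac
The kappa genes Igkv1-117 (chr6:68121046-68121827, plus strand) and Igkv1-110 (chr6:68270485-68271267, plus strand) are both among the most used. They are 97.2% identical over 359 coding bases. Bases 60 to 359 are shown, which hold all 10 bases that differ, in capitals.
Igkv1-117: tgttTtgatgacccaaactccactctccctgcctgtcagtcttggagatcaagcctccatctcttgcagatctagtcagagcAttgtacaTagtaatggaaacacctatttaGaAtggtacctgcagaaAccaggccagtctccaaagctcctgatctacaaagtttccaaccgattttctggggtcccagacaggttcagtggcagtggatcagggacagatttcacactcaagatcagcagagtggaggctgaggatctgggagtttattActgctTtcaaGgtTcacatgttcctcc
Igkv1-110: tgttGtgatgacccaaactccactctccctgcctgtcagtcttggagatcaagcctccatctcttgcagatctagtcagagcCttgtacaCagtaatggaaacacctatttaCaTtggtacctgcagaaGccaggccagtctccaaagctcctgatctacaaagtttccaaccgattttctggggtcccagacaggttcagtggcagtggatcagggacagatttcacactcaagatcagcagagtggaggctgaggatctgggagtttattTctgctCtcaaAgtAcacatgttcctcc
Igkv5-39 (chr6:69900424-69900977, minus strand) had the most UMIs per assigned cell among the 10 most used V genes. Its nearest copy, Igkv5-45, is 90.5% identical, and bases 48 to 347 are shown.
Igkv5-39: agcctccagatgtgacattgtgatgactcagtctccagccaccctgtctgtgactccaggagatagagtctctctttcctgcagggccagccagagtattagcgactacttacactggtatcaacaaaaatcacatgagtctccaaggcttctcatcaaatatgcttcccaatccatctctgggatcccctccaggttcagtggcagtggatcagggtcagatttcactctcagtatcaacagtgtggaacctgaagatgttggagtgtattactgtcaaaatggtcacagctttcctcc
Of the 163 members, 58 have a copy at least 95% identical, and these hold 62.0% of the assigned cells. The sources used here do not say how the authors' counting shared reads between such copies, so the split between near copies is uncertain.

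The study compared peripheral blood mononuclear cells of male mice, 12 to 13 weeks old, with type 2 diabetes induced by high-fat diet and streptozotocin against healthy controls. Both groups were injected into the peritoneum, T2D mice with streptozotocin, a toxin of insulin-producing beta cells, and Con mice with saline. Each group held 3 libraries, prepared as 3′-end libraries on a bead-and-microwell system. The sources used here do not give the strain, the control diet or the number of mice behind each library. The p-values below thus reflect the spread from library to library, which may be technical. The libraries held 7404 to 9112 barcodes and 23574052 to 32321855 UMIs, and any pair shared 65 to 89 barcodes.

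The cells taken as B cells carried the B cell markers of a list of 10. Each of these was detected in 77.7% (Ebf1, T2D 1) to 95.4% (Ms4a1, T2D 2) of them, and all 10 together made up 9957 to 10532 CPM (UMIs of the summed B cells of a library, scaled to the same total for every library). Transcripts of other cells were present at lower levels and in part moved with the groups. The 10 T cell markers summed to 262 to 312 CPM in Con and 418 to 467 CPM in T2D, and the 7 markers of antibody-secreting cells to 328 to 484 CPM in Con and 595 to 1093 CPM in T2D. The 6 NK cell markers summed to 53.5 to 75.2 CPM in Con and 86.3 to 105.3 CPM in T2D. Of the red cell markers, Hbb-bs (a beta globin) was detected in 15.2% to 18.5% of B cells in Con and 31.4% to 59.98% in T2D, although the 4 globin genes overlapped in summed level. Apart from that sum none of these ranges overlapped, and none of the listed markers was at 0. The part of these transcripts in the results below was not tested except where B cells with Jchain were left out.

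Light chain V transcripts were sparse, with 3959 to 5703 UMIs per library, or 0.0325% to 0.0486% of all B cell UMIs. The share of B cells assigned was 21.1%, 13.5% and 15.5% in Con and 15.0%, 20.5% and 18.2% in T2D. Group means were 16.7% ± 3.95 (SD, n = 3) and 17.9% ± 2.77, and the groups overlapped (two-sided exact permutation p = 0.8). Among assigned cells 64.9% had a top V gene at just 2 UMIs. T cells, with Cd3 transcripts and none of the 3 B cell genes, served as background: 0% to 0.289% of them had a V gene at 2 UMIs or more, 0 of 2078 cells in T2D 1, which allows up to 0.144% counted as 3 cells of the total and 0.177% by the exact interval. B cells had such a gene in 13.8% to 21.7%, although their median total was lower (2672.5 to 2967.5 UMIs against 3704.5 to 4166). A second V gene with at least 2 UMIs was found in 2.22% to 4.35% of assigned cells.

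Of the 163 members, 103 were the top V gene of at least 1 cell and 60 of none, and 26 had no UMI in any B cell. A cell in every library was found for 54 members, and 64 had at least 10 cells over the 6 libraries. The annotation lists 103 members as V genes and 60 as pseudogenes. The pseudogenes, segments that cannot encode a full chain, held 21 cells (0.507%), spread over 12 of them.

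Usage was uneven, and the 10 most used V genes held 50.8% of the assigned cells. Iglv3 held 8.41%, 7.95% and 7.77% of assigned cells in Con and 8.18%, 7.70% and 7.02% in T2D. Igkv1-117 held 4.61%, 6.28% and 7.63% in Con and 7.39%, 6.09% and 7.86% in T2D. Igkv5-39 held 5.30%, 7.58% and 7.63% in Con and 6.92%, 5.59% and 5.52% in T2D. These 3 genes overlapped one another in their spread over the libraries. Within libraries, Iglv3 was above Igkv5-39 in each, in Con 3 by 54 against 53 cells, and above Igkv1-117 in each but T2D 3. The order of Igkv1-117 and Igkv5-39 changed between libraries and is not resolved. Iglv1 held 6.34%, 4.81% and 5.04% in Con and 4.72%, 7.20% and 5.02% in T2D.

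The next genes, each with its mean over the 6 libraries, were Igkv17-127 (4.75% ± 1.02, SD, n = 6), Igkv10-96 (4.67% ± 0.653), Igkv1-110 (4.01% ± 0.776), Igkv17-121 (3.78% ± 0.599), Igkv19-93 (3.68% ± 0.539) and Igkv5-43 (3.48% ± 0.934). Neighbours in this order differed by less than the larger of their SDs. The third lambda gene, Iglv2, stood far lower, with 1.38%, 0.924% and 0.144% in Con and 1.26%, 1.99% and 1.84% in T2D, although it differs from Iglv1 at 11 of 351 coding bases. By gene family, named by the first number of the symbol, Igkv1 held 13.5% ± 1.07 of cells over the 6 libraries, Igkv5 11.2% ± 1.71, Igkv4 10.4% ± 1.16 and Igkv17 8.53% ± 1.15. Igkv4 was the family with the most members, 33, of which 27 had a cell, so its share was spread over many genes, while Igkv17 had 2 members with cells.

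**Figure D1:**
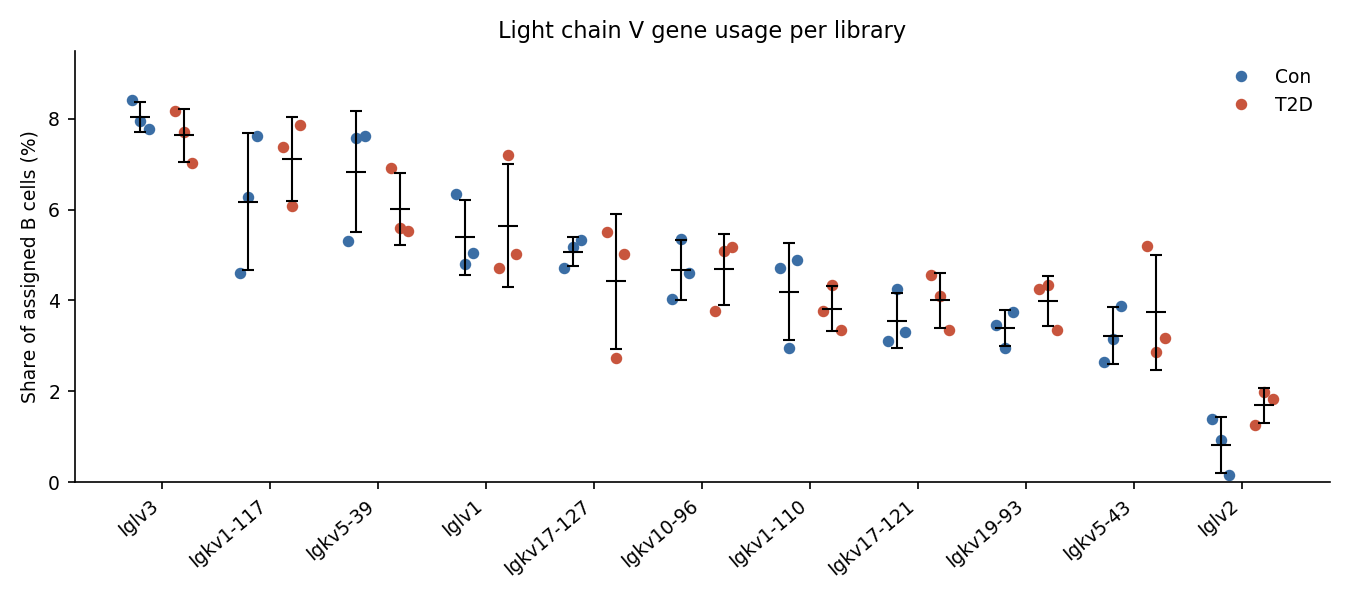
Share of assigned B cells (y axis, %) for the 10 most used light chain V genes and Iglv2 (x axis), each point 1 library (Con blue, T2D red), with the mean and SD of 3 libraries in black. The groups overlapped for each gene shown, and Iglv3 stood at 7.02% to 8.41% in all 6 libraries.

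These shares depended on the UMI minimum, and the V genes differed in UMIs per cell. Cells assigned to Igkv5-39 had a median of 4 UMIs of it, against 2 for each of the other most used V genes. Its mean share was 2.72% of cells when 1 UMI sufficed, 6.42% at 2 UMIs and 24.9% at 4 UMIs. Iglv3 went the opposite way, from 13.1% at 1 UMI to 7.84% at 2 and 3.75% at 4. Usage is therefore given as a share of assigned cells under a named minimum, and comparisons between libraries rather than between genes carry the tests below.

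Iglv3 was also detected far more widely than the other V genes. At least 1 Iglv3 UMI was found in 12.9% of cells assigned to another V gene (492 of 3817, exact 95% interval 11.8% to 14.0%, counting error only). The same share was 0.904% for Igkv1-117, 0.232% for Igkv5-39, 0.506% for Igkv17-127, 0.513% for Iglv2 and 4.09% for Iglv1. T cells held Iglv3 UMIs in 0.403%, against 11.4% of all B cells, so detection in T cells was lower by far.

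The B cells were then sorted by the light chain constant gene with the most UMIs (at least 2). Iglv3 was the most widely detected of these V genes in cells led by Igkc or Iglc2, but Iglv1 was in cells led by Iglc1. Iglv3 UMIs were found in 11.1% of cells led by Igkc, 10.7% of those led by Iglc1 and 30.0% of those led by Iglc2. Iglv1 UMIs were found in 2.41%, 46.5% and 21.8% of these cells, and Iglv2 UMIs in 0.414%, 2.17% and 21.1%. The 8 kappa genes among the 10 most used V genes were found in 1.50% (Igkv5-43) to 3.27% (Igkv1-117) of cells led by Igkc. Each was found in 0 of 553 cells led by Iglc1, which allows up to 0.665% by the exact interval. Of 487 cells led by Iglc2, 4 held Igkv19-93 (0.821%, exact 95% interval 0.224% to 2.09%, against 2.07% of cells led by Igkc), and 1 each held Igkv1-117, Igkv1-110 and Igkv5-43. The other 4 kappa genes were found in none of them. The widespread low detection of Iglv3 held in each library, with 8.73% to 12.8% of cells led by Igkc.

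**Figure D2:**
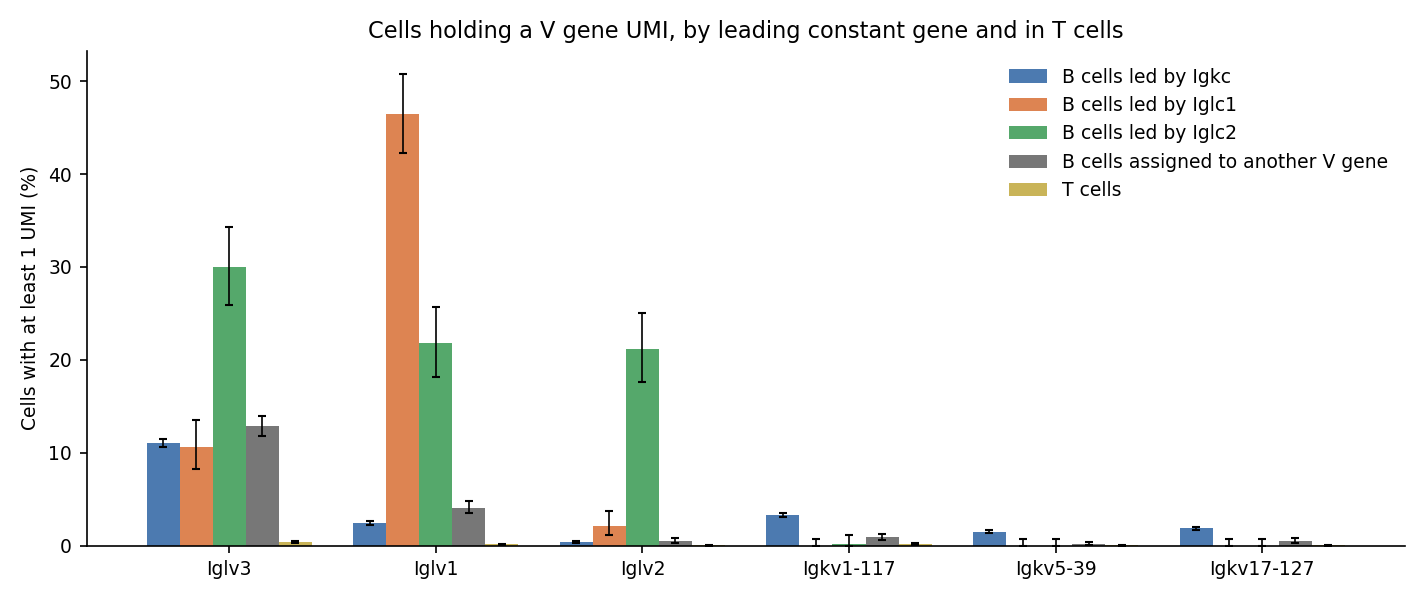
Share of cells with at least 1 UMI (y axis, %) of 6 light chain V genes (x axis), in B cells by their leading constant gene, in B cells assigned to another V gene, and in T cells, pooled over the 6 libraries, with exact 95% intervals that cover counting error only. Iglv3 stands at 10.7% or more in all 4 kinds of B cells. The 3 kappa genes shown stand at 0.205% or less in cells led by Iglc1 or Iglc2. In cells assigned to another V gene they stand at 0.904% or less.

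Constant genes, which the assignment did not use, were then compared with the assigned V gene. Of 3530 cells assigned to a kappa V gene, 3527 (99.9%) were led by Igkc, with a median of 60 Igkc UMIs, and their median Iglc1 was 0. Cells assigned to Iglv1 were led by Iglc1 in 42.0% and by Igkc in 41.5%, with medians of 9 Iglc1 and 7 Igkc UMIs. Cells assigned to Iglv2 were led by Iglc2 in 61.5% and by Igkc in 36.5%, with medians of 17 Iglc2 and 9 Igkc UMIs. Cells assigned to Iglv3 were led by Igkc in 78.4% and by Iglc2 in 19.8%, with a median of 39 Igkc UMIs.

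Most cells assigned to Iglv3 thus carried a kappa constant transcript as their leading one, in 59.0% (T2D 2) to 92.6% (Con 3) of cells per library. With at least 3 Iglv3 UMIs, 39 of 70 cells were still led by Igkc and 29 by Iglc2. On the chromosome the minus-strand order of the lambda genes, from 5′ to 3′, is Iglv2, Iglv3, Iglc2, Iglv1, Iglc3 and Iglc1. The constant gene that led most often among the lambda ones was the one that follows in this order for Iglv2 and Iglv3, and Iglc1 for Iglv1. Iglc2 and Iglc3 are near copies, so their split is uncertain, and free Igkc RNA was present, with a median of 1 to 3 Igkc UMIs in T cells against 39 to 48 in B cells.

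**Figure D3:**
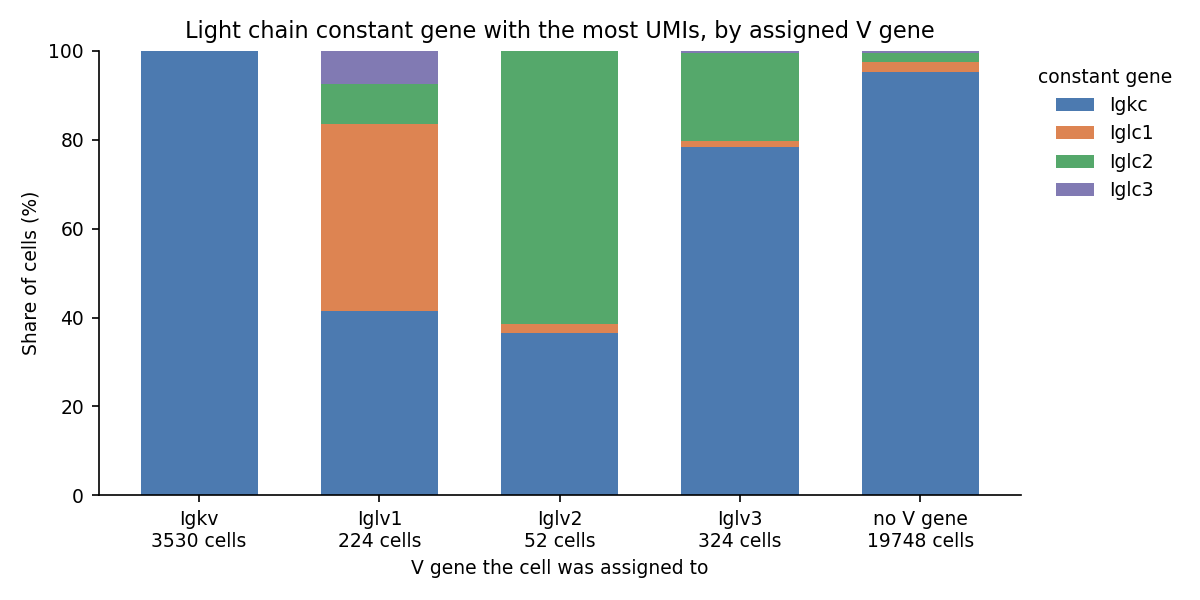
Share of cells (y axis, %) by the light chain constant gene with the most UMIs, for B cells assigned to a kappa V gene, to each lambda V gene, or to none (x axis, with the number of cells), pooled over 6 libraries. Igkc leads 99.9% of the kappa cells and 78.4% of the Iglv3 cells, but 41.5% and 36.5% of the Iglv1 and Iglv2 cells.

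The first comparison asked whether V gene usage differed between T2D and Con. No V gene passed: 0 of the 64 V genes with at least 10 cells (0%) had a Benjamini-Hochberg adjusted p under 0.05 by the quasi-likelihood test of edgeR (lowest 0.723). At an unadjusted p under 0.05 there were 4, namely Igkv14-126, Iglv2, Igkv4-74 and Igkv8-24, and DESeq2 called 0 with 0 at that level. Log2 fold changes ran from −2.09 to 1.79 with a median of −0.05, and 31 of 64 were positive. Among the most used genes, Iglv3 had −0.08 ± 0.19 (SE), Igkv1-117 0.21 ± 0.21, Igkv5-39 −0.16 ± 0.21 and Iglv1 0.07 ± 0.22. Iglv2 had 0.99 ± 0.46 (adjusted p = 0.723, edgeR) and its groups overlapped, with 12, 5 and 1 cells in Con against 8, 16 and 11 in T2D.

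The groups did not overlap for 5 of the 64 V genes (7.81%). These 5 were looked up after their values were seen. Igkv1-135 held 1.50%, 1.48% and 1.44% in Con against 1.73%, 2.11% and 2.34% in T2D, and Igkv12-41 held 1.61%, 1.66% and 1.73% against 1.42%, 0.994% and 0.836%. The other 3 were Igkv4-80, lower in T2D, and Igkv4-74 and Igkv6-25, higher in T2D, with at most 6 cells in a library. In data simulated with these cell numbers and the same spread for every gene, the test found 62.1% of genes changed 3-fold, with 0.85 false calls per run. Smaller differences in usage could thus go undetected at this depth.

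The second comparison was of the kappa to lambda ratio. Cells assigned to a lambda V gene numbered 140, 74 and 90 in Con and 90, 136 and 83 in T2D. As given above, Igkc led 78.4% of the Iglv3, 41.5% of the Iglv1 and 36.5% of the Iglv2 cells. The ratio and share by V gene thus count assigned V genes, not cells led by a lambda constant gene. The kappa to lambda ratio was 5.20, 6.31 and 6.72 in Con and 6.07, 4.92 and 6.20 in T2D. The corresponding lambda share was 14.3% ± 1.67 (SD, n = 3) in Con and 15.0% ± 1.67 in T2D. The groups overlapped (difference 0.723 percentage points, two-sided exact permutation p = 0.5). Without the cells assigned to Iglv3, a choice made after seeing the data, the share was 6.76% ± 1.48 in Con and 7.95% ± 1.80 in T2D (exact permutation p = 0.5).

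When each B cell was instead called by its leading constant gene, 3250 to 4461 cells per library could be called. The lambda share was then 4.58%, 3.64% and 3.86% in Con and 6.06%, 6.04% and 5.48% in T2D. All 3 T2D libraries lay above all 3 Con libraries, with means of 4.02% ± 0.490 (SD, n = 3) and 5.86% ± 0.330. The difference of 1.83 points gave a two-sided exact permutation p of 0.1, the smallest that 3 libraries against 3 allow. It was 1.85 points without B cells holding at least 2 Jchain UMIs, 2.27 points with the 3 lambda constant genes summed, and 1.64 to 2.11 points with any 1 library left out. The summed T cell, NK cell and antibody-secreting cell markers and the detection of Hbb-bs given above also lay higher in all 3 T2D libraries. Of the antibody-secreting markers taken singly, Xbp1, Mzb1, Sdc1 and Irf4 overlapped between groups. The part of T cell, NK cell and red cell transcripts in this difference was not tested.

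The third comparison was of diversity. The effective number of V genes, the exponential of the Shannon entropy of the assigned cells, was 45.7, 41.3 and 39.5 in Con and 37.4, 42.2 and 44.5 in T2D. The groups overlapped, at 42.2 ± 3.18 (SD, n = 3) and 41.4 ± 3.62 (two-sided exact permutation p = 0.8). The number of V genes with a cell was 80, 70 and 77 in Con and 74, 79 and 78 in T2D. At 541 cells, the number assigned in the smallest library, 72.0 ± 1.99 V genes were expected in Con and 73.3 ± 2.80 in T2D. With 1 UMI sufficing, the effective number was 50.2, 49.1 and 47.9 in Con against 42.6, 46.7 and 47.7 in T2D, without overlap (exact permutation p = 0.1).

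**Figure D4:**
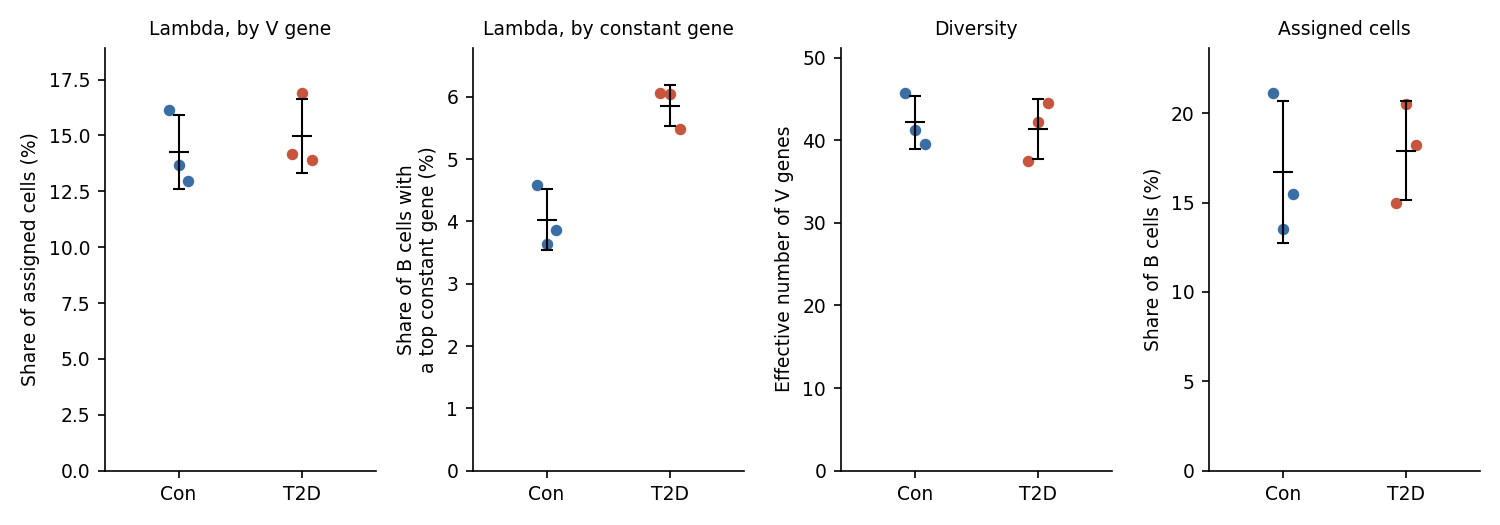
Lambda share by V gene (%), lambda share by constant gene (%), effective number of V genes, and share of B cells assigned (%), each point 1 library and black bars the mean and SD of 3 libraries per group. The groups overlap in the first, the third and the fourth panel, and are apart only in the lambda share by constant gene, 3.64% to 4.58% in Con and 5.48% to 6.06% in T2D.

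The fourth comparison was of the UMI level of each V gene, summed over all B cells of a library. Of 69 V genes tested, 1 passed (1.45%), higher in T2D, and 0 were called lower. Of all 11876 genes tested, 206 passed (1.73%), 0.985% higher and 0.749% lower. Igkv4-57 (chr6:69575975-69576500, minus strand) stood at 2.13, 2.59 and 1.48 CPM in Con and 4.87, 3.88 and 5.58 CPM in T2D. All 3 T2D libraries were above all 3 Con libraries, from 27, 30 and 20 UMIs in Con and 61, 49 and 62 in T2D. On the log2 scale this was a difference of 1.21 ± 0.26 (SE), with an adjusted p of 0.0326 by edgeR. The call was lost without Con 1 (adjusted p = 0.0961, edgeR), Con 2 (0.0760), Con 3 (0.127) or T2D 3 (0.121). It was also lost without B cells holding at least 2 Jchain UMIs, where the log2 fold change was 0.59 (0.427). The highest cell held 23 UMIs of Igkv4-57, 9.24% of those in B cells. In usage Igkv4-57 overlapped between groups, with 6, 2 and 4 assigned cells in Con and 1, 9 and 8 in T2D (adjusted p = 0.769, edgeR).

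The groups did not overlap for 11 of the 69 V genes (15.9%), against 20.9% of all genes tested. Igkv1-117 was among them, with 15.4, 17.4 and 18.7 CPM in Con and 21.2, 26.8 and 35.8 CPM in T2D (log2 fold change 0.70 ± 0.19, adjusted p = 0.136, edgeR). Iglv1 stood at 23.7, 17.1 and 15.9 CPM in Con and 25.3, 58.7 and 26.9 CPM in T2D (0.97 ± 0.45, adjusted p = 0.419). T2D 2 was the high library there, and 1 of its cells held 218 of its 741 Iglv1 UMIs. Iglv2 stood at 5.44, 2.68 and 1.62 CPM against 4.23, 21.2 and 5.31 CPM (1.67 ± 0.92, adjusted p = 0.492), again with T2D 2 high. There 1 cell held 140 of the 267 Iglv2 UMIs. Iglv3 stood at 50.7, 36.5 and 49.4 CPM in Con and 47.1, 51.5 and 37.3 CPM in T2D (−0.01 ± 0.16, adjusted p = 0.991). Over the 69 V genes, 36 log2 fold changes were positive and the median was 0.03, against −0.00223 over all genes.

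A few cells with many V transcripts weighed on these sums. B cells with at least 10 UMIs of their top V gene numbered 8, 9 and 8 in Con and 18, 25 and 29 in T2D. They held 18.4%, 34.8% and 20.5% of the top V UMIs of assigned cells in Con, and 34.4%, 40.1% and 56.1% in T2D. Of these cells 5, 8 and 7 in Con and 15, 18 and 25 in T2D also had at least 2 UMIs of Jchain, the joining chain of secreted IgA and IgM. The single highest cell had 255 UMIs of Igkv5-39, in Con 2, which was 16.1% of all Igkv5-39 UMIs in B cells. The usage shares count such a cell once.

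Of the light chain constant genes, Igkc rose in the same sums from 16052, 16945 and 16496 CPM in Con to 20066, 19353 and 20713 CPM in T2D. That was 0.28 ± 0.06 (SE) in log2 units, with an adjusted p of 0.0323 by edgeR. Without B cells holding at least 2 Jchain UMIs it was 0.06 (adjusted p = 0.733), and the call was also lost without Con 1 (0.151), Con 2 (0.193), Con 3 (0.131) or T2D 1 (0.0526), and with all deposited barcodes kept (0.0580). Iglc1 stood at 260, 263 and 242 CPM in Con and 403, 596 and 242 CPM in T2D, and overlapped (0.70 ± 0.37, adjusted p = 0.471). Iglc2 had 0.17 ± 0.18 (adjusted p = 0.735) and Iglc3 0.02 ± 0.09 (adjusted p = 0.942).

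Igkc belonged to a list of 40 light chain, heavy chain constant, receptor signalling and B cell transcription factor genes, of which 34 were tested. Of these 2 passed (5.88%, against 1.73% of all genes), Igkc higher and Foxo1 lower, 18 log2 fold changes were positive, and 13 had no overlap between groups (38.2%, against 20.9% of all genes). Foxo1, a transcription factor that drives RAG expression in B cell precursors, fell from 411, 429 and 431 CPM in Con to 353, 371 and 357 CPM in T2D. The log2 fold change was −0.23 ± 0.05 (adjusted p = 0.0372, edgeR), and the call was lost with any 1 library left out (0.0604 to 0.207) and without B cells holding Jchain (0.0593), where the log2 fold change was −0.22. Rag1 was low, at 1.42, 1.30 and 1.40 CPM in Con and 0.799, 0.476 and 0.360 CPM in T2D, without overlap. It did not pass (−1.30 ± 0.39, adjusted p = 0.119, edgeR), and a link to Foxo1 was not tested. Jchain stood at 166, 288 and 149 CPM in Con and 402, 479 and 809 CPM in T2D (1.49 ± 0.43, adjusted p = 0.241). Vpreb1, Vpreb2, Igll1, Rag2, Dntt and Ighe, most of them genes of B cell precursors, were too low to be tested.

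Usage was next compared within libraries between B cell subsets, each defined by a gene that is no V gene, with the library as a block. Cells with a UMI of Cr2 (the complement receptor CD21), of Cd83 (an activation marker), of Vpreb3 (high in less mature B cells), or of Fcrl5 or Bhlhe41 (genes of innate-like and memory B cells) were set against the other B cells. In each of these 4 comparisons 0 of 64 V genes passed in edgeR's quasi-likelihood test (0%). At an unadjusted p under 0.05 there were 4 for Cr2, 3 for Cd83, 2 for Vpreb3 and 3 for Fcrl5 or Bhlhe41. The lowest adjusted p was that of Igkv4-55 (0.104), which held 1.15% ± 0.839 (SD, n = 6 libraries) of Cd83-positive and 2.46% ± 0.805 of other assigned cells. Its log2 fold change was −1.08 ± 0.31, it was lower in 5 of 6 libraries, and it passed without T2D 2 (adjusted p = 0.0362) or T2D 3 (0.0297), with the Cd83 minimum raised to 2 UMIs (0.0468) and among V genes with at least 60 cells (0.0350).

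Cells with at least 2 Jchain UMIs, the transcript of cells that secrete antibody, were rare. They made up 0.292%, 0.425% and 0.334% of B cells in Con and 0.660%, 1.04% and 1.34% in T2D, 157 cells in all, and 109 of them were assigned to a V gene. Their median total was 4606 to 12560.5 UMIs against 2669 to 2952 in the other B cells. Of 64 V genes 2 passed (3.12%), both lower among Jchain-positive cells, and 5 had an unadjusted p under 0.05. Igkv17-127 was the V gene of 0 of 109 Jchain-positive cells and of 193 of 4034 others (adjusted p = 0.0496, edgeR). Among the others it held 2.82% to 5.70% per library. With its 0 cells set to a floor of 3, its share would be 1.74-fold lower in Jchain-positive cells, a bound rather than a measured difference. By an exact 95% interval for counting error alone, its share there was 0 to 0.714 times that in the others. Its nearest copy, Igkv17-121, is 97.5% identical. Iglv3 was the V gene of 1 of 109 against 325 of 4034, which is 0.114 times the share (0.00287 to 0.639 by an exact 95% interval for counting error alone), with a log2 fold change of −3.06 ± 0.87 (adjusted p = 0.0496).

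Both calls stood at the edge of the threshold. They were lost for both genes without Con 2 (adjusted p = 0.0827, edgeR) and without T2D 1 (0.190 each), T2D 2 (0.185 for Igkv17-127 and 0.219 for Iglv3) or T2D 3 (0.473 each). Igkv17-127 alone lost its call without Con 3 (0.0992). Both also lost it with a Jchain minimum of 4 UMIs (0.0650 each) and with all 103 V genes tested (0.0524 each), and Iglv3 with a V gene minimum of 4 UMIs (−1.85, 0.313). At that minimum Igkv17-127 passed (0.00302). So did Igkv5-39, the V gene of 2 of 92 Jchain-positive and 150 of 534 other cells (log2 fold change −3.65, adjusted p = 8.98e-06, edgeR). However, that minimum kept 92 of 109 assigned Jchain-positive cells but 534 of 4034 others. It thus acted unequally on the 2 sides, so these 2 calls do not measure usage alone. The main minimum of 2 UMIs was unequal as well. Per library it assigned 58.3% (Con 1) to 78.6% (T2D 1) of Jchain-positive B cells. Of the other B cells it assigned 13.3% (Con 2) to 21.02% (Con 1). The main calls of Igkv17-127 and Iglv3 thus do not measure usage alone either. At the minimum of 2 UMIs Igkv5-39 was the V gene of 3 of 109 against 259 of 4034 and did not pass (−1.20 ± 0.69, adjusted p = 0.410). Igkv6-23 was called higher in Jchain-positive cells without Con 1 (2.64, adjusted p = 0.0471) and did not pass over all 6 libraries (2.49 ± 0.80, adjusted p = 0.0607). The most frequent V genes among the 109 cells were Igkv1-117 with 9 cells, Igkv1-110 with 7 and Iglv1 with 6. Igkv1-117 held 9.68% of Jchain-positive and 7.76% of other assigned cells in T2D 3, the library with the most Jchain-positive cells, and did not pass over the libraries (0.26 ± 0.48, adjusted p = 0.729).

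Along the kappa locus, usage was spread from the genes nearest the J segments to the far end. V genes within 500 kb of Igkj1 held 12.1% of all assigned cells, those at 500 to 1000 kb 23.2%, at 1000 to 1500 kb 7.80% and at 1500 to 2000 kb 8.04%. Those at 2000 to 2500 kb held 13.1%, at 2500 to 3000 kb 19.2% and beyond that 1.76%. Among the most used, Igkv5-39 lies 822 kb and Igkv17-127 2861 kb from Igkj1. From near to far the bins held 24, 26, 32, 25, 23, 25 and 5 members, of which 19, 21, 17, 14, 12, 15 and 2 are not annotated as pseudogenes.

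Kappa V genes lie in both orientations, and a gene on the minus strand joins by inversion rather than deletion. The 75 genes on the plus strand, that of Igkj1, held 35.3% of assigned cells and the 85 on the minus strand 49.9%, the rest being lambda. The minus-strand share was 49.9% ± 1.82 (SD, n = 3) in Con and 50.2% ± 1.23 in T2D. The bin at 2500 to 3000 kb held 19.5% ± 1.59 and 19.3% ± 1.56. In the bin beyond 3000 kb the groups did not overlap, at 1.47% ± 0.0300 and 2.06% ± 0.309. All its cells were assigned to 1 gene, Igkv1-135, whose values are given above, and in the other 6 bins the groups overlapped.

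**Figure D5:**
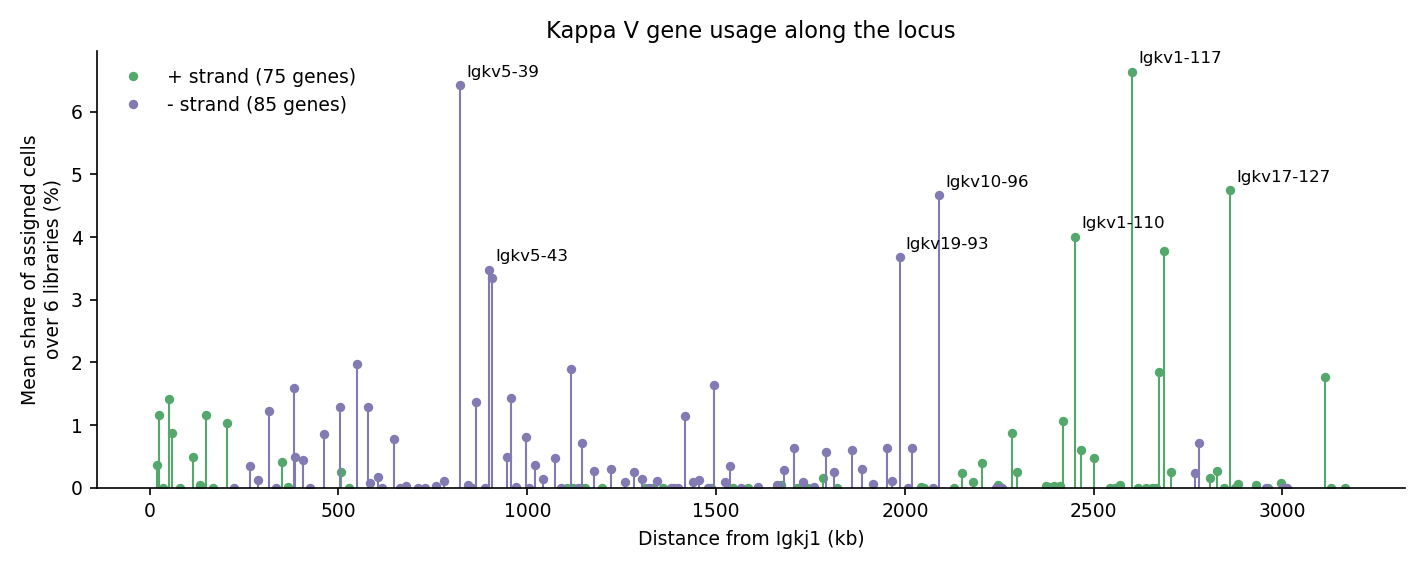
Mean share of assigned cells over 6 libraries (y axis, %) of the 160 kappa V genes by their distance from Igkj1 (x axis, kb), coloured by strand (75 plus, 85 minus). High values stand near 822 kb (Igkv5-39, 6.42%) and from 2090 to 2861 kb (among them Igkv10-96, Igkv1-110, Igkv1-117 and Igkv17-127). Between 1000 and 2000 kb most values are lower, but Igkv19-93 stands at 3.68% (1986 kb).

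Heavy chain V genes were assigned by the same rule, and 531 cells had both a light and a heavy V gene. They formed 433 different pairs, of which 351 were seen in 1 cell, and no pair reached 10 cells. The most frequent was Igkv12-44 with Ighv3-6, 7 cells from 4 libraries, 3.89 times the number that the 2 genes' own frequencies give.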

How the data were processed

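The authors deposited 1 matrix of UMI counts for each library, not normalized. Per the submitters' processing notes CASAVA 1.8, UMI-tools, Seurat and the build mm10 were used, without roles. The aligner is not given in the sources used. Kept barcodes had 200 genes or more and no more than 20% of UMIs from mitochondrial genes, and scrublet (scanpy 1.11.5, 1 score threshold for all libraries) removed 2.56% to 3.64% as doublets. No pair of libraries matched within counting error (lowest ratio of chi-square to its degrees of freedom 4.18).

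Cells per V gene (at least 10 in all) and UMIs summed over B cells were tested with edgeR 4.0.16 in R 4.3.3 (robust quasi-likelihood test, Benjamini-Hochberg adjusted p under 0.05). Library size was the number of assigned cells for usage, and TMM scaling with filterByExpr was used for UMI levels. DESeq2 1.42.0 was an alternative. Shares and diversity were tested by exact permutation in scipy 1.17.1, and intervals are exact Clopper-Pearson intervals. Subset comparisons had the library as a block. The scripts were tested on simulated data, where 85.5% of genes changed 2-fold in UMI level over 11919 genes were found, with 6 false calls. The changed genes were drawn from all genes tested and every gene had the same spread. The rate for V genes, where single cells weigh on the sums, is thus not given by it. Coordinates and sequences are from GENCODE M21, which held all 163 V genes.

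The members, lists and tests were chosen with earlier results of these data known. Genes named are the 10 most used V genes, all Iglv genes, V genes and listed receptor genes past a threshold, and the light chain constant genes. Any others were chosen after their values were seen. The labels' library numbers were checked for pairing. Same-numbered libraries correlated at −0.035, −0.051 and −0.072 in usage, and at −0.088, 0.022 and 0.139 in UMI level over the genes tested. No pairing by number was seen, but many V genes had few cells, so pairing could be missed.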

Additional observations from a re-analysis of the deposited data

How the results depend on the processing

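Usage between T2D and Con gave 0 calls in every alternative run, and so did the Cr2, Vpreb3 and Fcrl5 or Bhlhe41 subsets. The T2D minus Con difference in lambda share by V gene turned to −0.0492 points with cells thinned to 1000 UMIs and ranged from −0.237 to 1.66 with 1 library left out. That in the effective number of V genes turned to 1.27 for V genes expected at equal cells and ranged from −2.33 to 1.21 with 1 library left out. That in the assigned share ranged from −0.406 to 3.40 points. None of these directions is stable.

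The count of V genes called in UMI level, 1 in the main analysis, was 0 without Jchain-positive cells, 3 with DESeq2, 8 with no filter on low counts and 0 to 4 with 1 library left out. The Cd83 subset gave 1 call with a minimum of 2 Cd83 UMIs, 1 among V genes with at least 60 cells and 0 to 1 with 1 library left out. The Jchain subset, 2 calls, gave 0 with a minimum of 4 Jchain UMIs, 0 with no filter and 0 to 3 with 1 library left out. With the library number as a replicate block, usage gave 0 calls and UMI level 4 (Igkv1-117, Igkv15-103, Igkv4-57 and Igkv6-25, all higher in T2D), although no pairing by number was seen.

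Depth limits the assignment, since 64.9% of assigned cells rest on 2 UMIs, and the thinned cells left 23 V genes to test.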
